A study of Mus musculus with 2 samples.

Results

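Mural cells that carried transcripts of Myh11, the heavy chain of smooth muscle myosin, were examined among mesenchymal stromal cells (MSCs) sorted from intestinal grafts. A cell was a member when it had at least 1 unique molecular identifier (UMI, a count of 1 captured transcript) of Rgs5 and at least 1 of Myh11, a UMI for at least 2 of Notch3, Kcnj8, Vtn and Cspg4, and none of Pdgfra. Barcodes entered with at least 500 genes and at most 10% of UMIs from mitochondrial genes. The rule took 956 of 17783 such barcodes, 277 of 9873 from the large intestinal (LI) graft and 679 of 7910 from the small intestinal (SI) graft. Because measured UMIs chose the cells, the levels of these genes, and the contrasts with groups of cells defined by the same genes, are given as descriptions without a test.

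Mid-gestation embryonic intestine of EYFP (C57BL/6) mice was placed beneath the kidney capsule of adult wild type (WT) hosts and left for 4 weeks. The embryos had EYFP fathers and C57BL/6Nrj mothers. Both groups shared this genotype, host, site and time, and differed in the grafted segment. The sort took live cells positive for YFP and Itgb1 and negative for EpCAM, CD31, CD45, Ter119, L1CAM and BP3, which kept graft-derived cells and removed leukocytes, erythroid cells, endothelium, epithelium and glia by surface protein. Each segment gave 1 library, so no difference below has a replicate check, and the cells of a library are not replicates. The LI library was made from 3 pooled colonic grafts, per the study's methods. The number of grafts behind the SI library and the sex of the embryos were not given in the sources used here, and the 10x Genomics chemistry was named for the study as either a 3′ or a 5′ kit without saying which library used which, so kit and segment cannot be told apart.

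Mural cells wrap the outside of blood vessels. Pericytes sit within the capillary basement membrane, and vascular smooth muscle cells form the contractile coat of arterioles and larger vessels, with intermediate forms between them. Both depend on PDGF-B made by endothelium and sensed through PDGFRβ, and Notch3 signalling maintains the muscle coat of arteries. The intestine also holds large amounts of visceral smooth muscle, which shares the contractile proteins of vascular muscle, including smooth muscle myosin.

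The libraries held 11568 barcodes and 63348069 UMIs for the LI graft and 9631 barcodes and 54918006 UMIs for the SI graft. LI members had a median of 4960 UMIs (range 1170 to 20313) and SI members of 5520 (range 922 to 33547). Between the libraries 26 barcode sequences were shared, and none of them was a member in both. A UMI of Ptprc, the pan-leukocyte gene, was found in 0 LI and 1 SI member, of the endothelial gene Pecam1 in 0 and 4, and of the epithelial gene Epcam in 0 and 5. The 8 immune markers listed summed to 29.6 and 10.9 UMIs per 1e+06 of the group (CPM, a level relative to all UMIs of those cells) in LI and SI members, the 8 endothelial markers to 46.4 and 34.5, the 7 kidney markers to 0.644 and 18.5, and the 7 markers of glia and neurons to 15.5 and 52.0, with Tubb3, a neuronal tubulin, at 7.73 and 48.2 CPM. The 10 fibroblast (FB) markers summed to 2931 and 1571 CPM in members, to 12232 and 11910 in visceral muscle cells and to 22638 and 29542 in Pi16+Pdgfra+ FBs, which are the cells of these libraries with a UMI of both genes. The part of other cells' RNA in the results below was not tested.

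Members were 2.81% of LI cells (95% exact binomial interval 2.49 to 3.15) and 8.58% of SI cells (7.98 to 9.22). The shares were 1.16% and 4.06% after thinning to 2000 UMIs, 1.30% and 5.47% with at least 3 Myh11 UMIs, and 1.68% and 4.42% with at least 3 mural genes. These intervals, and those of levels and ratios below, cover counting error only. Mural cells that met every condition but had no Myh11 UMI, called Myh11- mural cells here, were 262 LI and 350 SI cells. Cells with at least 3 of Myh11, Actg2, Cnn1 and Des but fewer than 2 of the 4 mural genes, called visceral muscle cells, numbered 541 and 640. A UMI of Rgs5, which did not bar these cells, was found in 20.9% of LI and 45.5% of SI ones. Counting Rgs5 as a further mural gene left 489 and 502 of them. The part of vascular mural cells in this group was not tested. The share of mural cells with Myh11 was 51.4% for LI cells (47.1 to 55.7; 277 of 539) and 66.0% for SI cells (63.0 to 68.9; 679 of 1029). After each mural cell was thinned to 2000 UMIs the shares were 35.6% (31.5 to 39.9; 184 of 517) and 50.9% (47.7 to 54.1; 500 of 982), so at least part of the split into cells with and without Myh11 moved with depth, while the SI share stayed above the LI share. Myh11- cells were also shallower than members, with median UMIs of 4071.5 and 3589.5.

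Members spread widely above the limit of 1 Myh11 UMI. The median was 2 UMIs in LI members (quartiles 1 to 5) and 4 in SI members (quartiles 2 to 8), and 97 LI and 152 SI members had exactly 1, while 128 and 433 had at least 3. At the other end, 33 LI and 133 SI members had 10 or more, with highest counts of 44 and 144. Of the 4 mural genes, LI members had 2, 3 or 4 in 111, 123 and 43 cells, and SI members in 329, 277 and 73. Outside the rule, 97 LI and 216 SI cells with Rgs5 and Myh11 and no Pdgfra had just 1 mural gene, and 36 and 79 cells failed on a Pdgfra UMI alone.

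Cells just outside and just inside the limits were compared. Acta2, smooth muscle alpha-actin, stood at 754 CPM in LI mural cells without Myh11 and 1527 in those with 1 UMI of it, and at 1660 and 2406 in the SI graft, whereas Pdgfrb, the PDGF-B receptor, stood at 593 and 572 and at 657 and 575. Across the limit on mural genes, Pdgfrb was 181 CPM in LI cells with 1 mural gene and 382 in those with 2 (SI 187 and 372), and Dcn, a fibroblast proteoglycan, was 5314 and 2012 (SI 4951 and 766). Abcc9, another pericyte gene, was at 80.7 and 128.9 CPM across this limit (SI 49.9 and 54.8). Acta2, Actg2, Tagln, Cnn1 and Des were higher inside this limit in the LI graft and lower in the SI graft. Acta2 was at 5441 and 8131 CPM (SI 8707 and 8416) and Actg2 at 837 and 1502 (SI 3096 and 1801).

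The levels of the rule's own genes describe what the choice of cells fixed and are no check of the label. Rgs5 (chr1:169655501-169695813, plus strand, mm10), a regulator of G protein signalling typical of pericytes, was at 3886 CPM in LI and 3543 in SI members, near its level in Myh11- cells (4063 and 4456) and above visceral muscle cells (93.1 and 308). Notch3 (chr17:32120820-32166852, minus strand), the Notch receptor of mural cells, was at 419 and 461 CPM in members, 362 and 451 in Myh11- cells and 6.49 and 21.9 in visceral muscle. Myh11 itself (chr16:14194535-14291372, minus strand) was at 811 and 1005 CPM in members and 1199 and 1303 in visceral muscle cells. It had a UMI in 7.82% of LI and 12.6% of SI Pi16+Pdgfra+ FBs, which should lack it and which were deeper (median UMIs 8334 and 9272), so members with 1 UMI of Myh11 are within reach of background.

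The other mural genes of the rule separated by kind. Kcnj8 (chr6:142564837-142571614, minus strand), the pore subunit of the vascular ATP-sensitive potassium channel, was at 315 and 169 CPM in members against 651 and 510 in Myh11- cells. Cspg4 (chr9:56865033-56899870, plus strand), the NG2 proteoglycan, was at 213 and 176 against 217 and 188, and Vtn (chr11:78499091-78502324, plus strand), vitronectin, at 341 and 379 against 370 and 623. Notch3 and Cspg4 therefore stood at near levels in both kinds of mural cell, and Kcnj8 was lower in members in both grafts.

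The label was set beside mural markers that the rule did not use, in the same cells and so as a description. Mcam (CD146) was at 270 and 343 CPM in members, 49.0 and 78.7 in visceral muscle cells and 4.18 and 6.87 in Pi16+Pdgfra+ FBs. Pdgfrb was at 471 and 401, against 56.8 and 73.6, and 55.9 and 53.2. Higd1b, a pericyte gene, was at 92.1 and 130, against 0.541 and 4.71, and 0.871 and 2.44. All 3 were higher in members than in visceral muscle cells and FBs. In Myh11- cells Mcam was at 227 and 268 CPM, while Pdgfrb (593 and 657) and Higd1b (147 and 290) were above their levels in members.

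**Figure D1:**
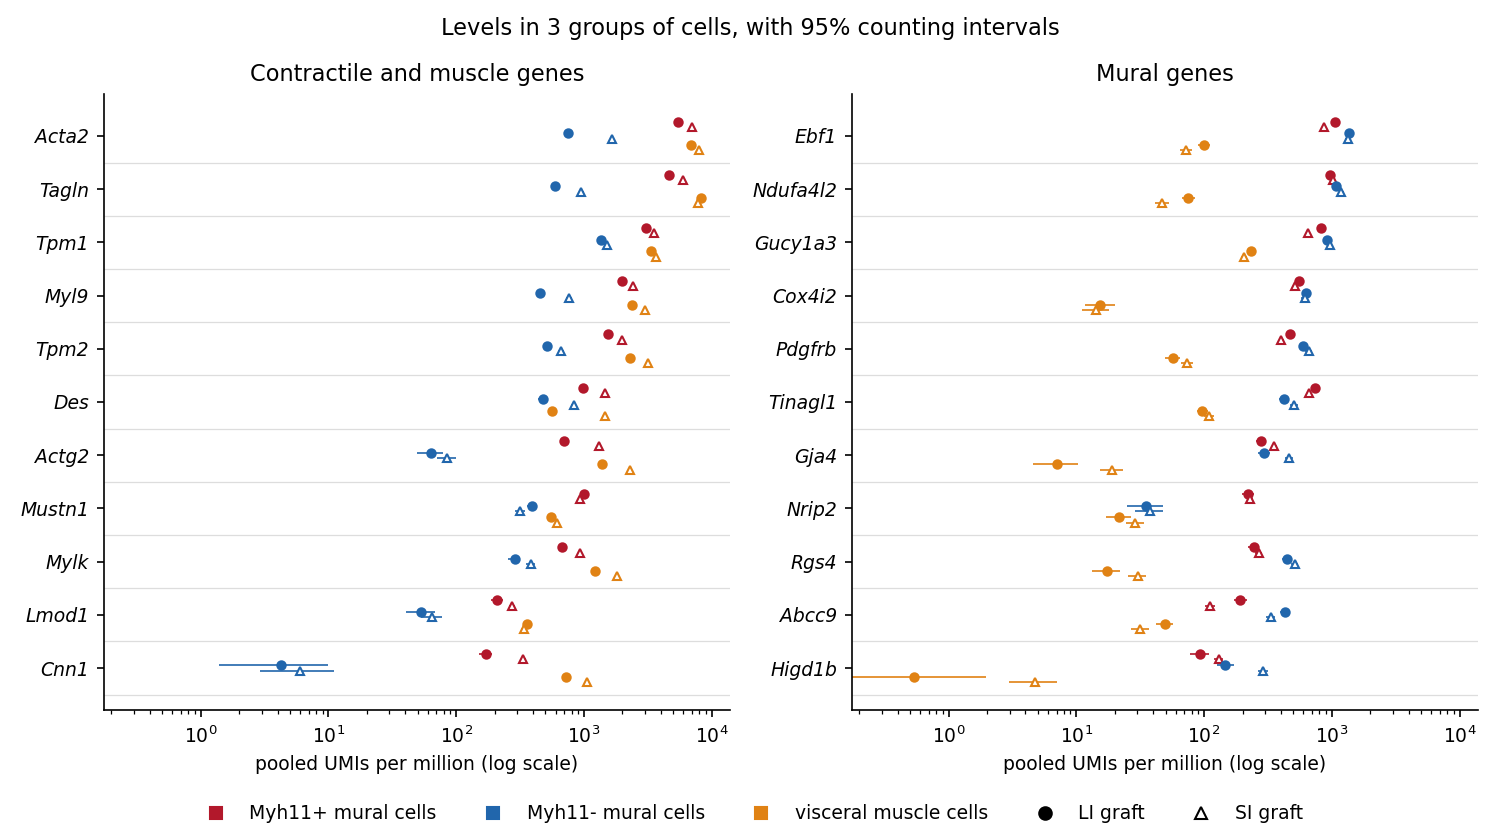
Levels in CPM (log axis) of 11 contractile and muscle genes and 11 mural genes in Myh11+ mural cells, Myh11- mural cells and visceral muscle cells, with filled circles for the LI graft, open triangles for the SI graft and bars for 95% counting intervals. Acta2 in members (5411 and 7003 CPM) lies near visceral muscle (6861 and 8032), while Cox4i2 (552 and 515 CPM) lies near Myh11- mural cells (633 and 612).

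The first comparison asked what accompanies Myh11 among mural cells. UMIs of each group of cells were summed per library, and genes with at least 20 CPM in one of the groups in both libraries were compared as log2 ratios after 5 CPM was added to each level, which understates the differences of low genes. A gene was counted as higher or lower when the ratio passed 2-fold in the same direction in both libraries. Of 6206 genes, 82 were higher in members than in Myh11- mural cells (1.32%) and 7 were lower (0.113%). The 82 became 146 when members needed 3 Myh11 UMIs, 45 when 3 mural genes were required, 53 after thinning to 2000 UMIs and 42 at a level of at least 50 CPM. The median over all genes was -0.05 on the log2 scale in each library. Because Myh11 chose the cells in this same contrast, these counts are given beside the background and nothing is read from them.

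The contractile genes encode the actin and myosin filaments and their regulators. Of 27 counted, 11 were higher in members and 0 lower, with a median log2 ratio of 0.70 for LI cells and 0.92 for SI cells. Acta2 (chr19:34241090-34255590, minus strand) was at 5411 CPM in LI members against 754 in Myh11- cells, a log2 ratio of 2.84 (2.74 to 2.94), and at 7003 against 1660 in the SI graft, 2.07 (2.02 to 2.13). Tagln (chr9:45929619-45936058, minus strand), the actin-bundling protein transgelin, was at 4642 against 592 (2.96, 2.85 to 3.07) and 6011 against 954 (2.65, 2.58 to 2.72). Lmod1, a leiomodin that nucleates actin filaments in smooth muscle, was at 211 against 53.0 and 276 against 64.6, with log2 ratios of 1.89 (1.53 to 2.27) and 2.01 (1.74 to 2.29). These intervals cover counting error only, and since Myh11 divided the cells the ratios are a description.

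Other parts of the contractile apparatus were compared in the same way. The regulatory light chain Myl9 had log2 ratios of 2.12 and 1.66, the tropomyosins Tpm1 1.19 and 1.22 and Tpm2 1.56 and 1.59, and Mylk, the kinase that phosphorylates the light chain, 1.23 and 1.26. Flna, an actin crosslinker, had 1.35 and 1.18, Ppp1r12b, a subunit of myosin phosphatase, 1.42 and 1.39, and Mustn1 1.34 and 1.55. Itga8, an integrin subunit of muscle and mesenchyme, was at 48.9 and 38.8 CPM in members and at 6.84 and 16.3 in Myh11- cells. The essential light chain Myl6 fell just short in the LI graft (0.98 and 1.08), as did Nexn in the SI graft (1.27 and 0.92), and Cald1 (0.34 and 0.41), Vcl (0.40 and 0.47), Mrvi1 (0.05 and 0.06) and Tagln2 (-0.37 and -0.06) were closer to equal. Acta2 had a UMI in 79.8% of LI and 90.6% of SI members, in 50.8% and 59.1% of Myh11- cells and in 39.5% and 35.0% of Pi16+Pdgfra+ FBs. After thinning to 2000 UMIs the share was 75.9% and 84.2% in members and 19.8% and 15.9% in the FBs.

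Genes of smooth muscle are widely controlled by serum response factor, which binds a DNA element called the CArG box. Promoter windows from 250 bases before to 50 after the start site (RefSeq, GRCm38.p6) matched 25 of the 28 contractile genes, not Tagln or Nexn, and did not match Myh11. The box was searched on both strands in its strict form and in a looser form that allowed at most 1 G or C among the central bases. Capitals mark it in the following stretches, given for contractile genes whose windows hold it, among them Acta2 and Myl9, which were higher in members, and Myl6 and Vcl, which were not counted as higher, so that windows of both kinds can be compared.
Acta2 (chr19:34255368-34255487, minus strand, boxes 84 and 34 bases before the start, looser form): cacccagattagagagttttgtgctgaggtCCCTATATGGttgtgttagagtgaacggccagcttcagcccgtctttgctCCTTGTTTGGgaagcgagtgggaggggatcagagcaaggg
Myl9 (chr2:156775273-156775404, plus strand, a strict box 161 and a looser one 99 bases before the start): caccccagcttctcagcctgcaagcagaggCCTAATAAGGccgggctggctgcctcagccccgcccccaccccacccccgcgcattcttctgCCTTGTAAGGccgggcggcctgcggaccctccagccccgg
Myl6 (chr10:128493020-128493089, minus strand, strict box 50 bases before the start): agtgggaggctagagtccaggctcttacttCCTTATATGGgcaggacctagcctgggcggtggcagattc
Vcl (chr14:20929148-20929210, plus strand, strict box 227 bases before the start): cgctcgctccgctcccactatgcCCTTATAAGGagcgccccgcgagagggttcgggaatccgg

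The strict form was in the windows of 3 of 25 contractile genes (12%; Myl6, Myl9 and Vcl) and of 488 of all 27025 genes with a window (1.81%). The looser form was in 5 of 25 (20%; Acta2 and Pdlim3 in addition) and in 3050 of all genes (11.3%). Of the 10 contractile genes that were higher in members and had a window, 1 held the strict form (Myl9) and 2 the looser form (Acta2 and Myl9), and of 19 pericyte genes with a window 0 held the strict and 2 the looser form (10.5%). A match describes these letters and is not a bound site.

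Genes better known from visceral muscle were also higher in members than in Myh11- cells, 6 of 7 counted, with medians of 1.91 and 2.08. Cnn1 (chr9:22099216-22109630, plus strand), the basic calponin of differentiated smooth muscle, was at 171 against 4.27 CPM in the LI graft (log2 4.24, 3.53 to 4.80) and 336 against 6.04 in the SI graft (4.95, 4.40 to 5.43). Actg2 (chr6:83512905-83536265, minus strand), the gamma-actin of enteric muscle, was at 698 against 63.3 (3.36, 3.05 to 3.70) and 1320 against 84.6 (3.89, 3.66 to 4.12). Synm (a muscle intermediate filament protein), Ckb (brain-type creatine kinase), Hspb7 and Dstn were the others, and Des, desmin, was not (1.03 and 0.81).

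Few cells carried much of the Actg2 and Cnn1 signal. Without the highest cell of each gene, the log2 ratios over Myh11- cells, as means of the libraries, were 2.97 for Actg2 and 4.33 for Cnn1. The mean list median was then 1.92. Actg2 had a UMI in 35.0% of LI and 45.9% of SI members, and in 12.3% and 13.4% of Pi16+Pdgfra+ FBs. Of the 1084 Actg2 UMIs in LI members, 707 (65.2%) came from 1 cell, and without the 3 highest cells the level was 216 CPM in place of 698. In SI members the highest cell held 1089 of 6196 Actg2 UMIs (17.6%), and the level without the 3 highest was 765 CPM in place of 1320. For Cnn1 the corresponding levels were 86.8 in place of 171 and 201 in place of 336. Among the 82 genes higher in members, 5 had 25% or more of their UMIs in a single cell in one of the libraries, namely Actg2, Ccl5, Cnn1, S100a4 and Sh3bgr.

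Members were split by Actg2 to see what travelled with it, as a description, since the split uses a measured gene. Cells with at least 3 Actg2 UMIs (47 LI, 178 SI) had 626 and 765 CPM of Cnn1, against 17.0 and 13.2 in members with none (180 LI, 367 SI). Acta2 was at 12599 and 12064 CPM against 2287 and 2618, and Grem1, a BMP antagonist of intestinal muscle and adjacent stroma, at 248 and 247 against 45.4 and 44.3. The highest cell held 71 of the 93 Grem1 UMIs of LI cells with Actg2, and without it the level was 61.3 CPM. Without the highest cell of each, Cnn1 was at 363 and 621 CPM and Acta2 at 11800 and 11915. In the other direction, Cox4i2 was at 195 and 310 against 728 and 735, Pdzd2 at 26.6 and 27.5 against 126 and 104, and Lamc3 at 16.0 and 9.69 against 165 and 56.9. These genes were picked from this same split, so they show its extremes. Of the rule's mural genes, Rgs5 was at 2153 and 2720 CPM in members with Actg2 against 4630 and 4408, Notch3 at 312 and 299.8 against 459.9 and 618, and Vtn at 195 and 242 against 412 and 514. Kcnj8 was lower with Actg2 in the LI graft only (184 and 181 against 366 and 164), and Cspg4 was at near levels (195 and 169 against 228 and 174). Members with Actg2 were deeper (median UMIs 6869 and 9352.5, against 4503.5 and 4585), and 14.9% and 12.9% of them were among the highest doublet scores, against 9.44% and 4.63%. The part of mixed droplets in this split was not tested.

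Genes associated with vascular muscle formed a separate set. Of 18 counted, 11 were higher in members than in Myh11- cells and 0 lower (medians 1.23 and 1.18), beside 1.32% and 0.113% of all genes. In a separate count against visceral muscle cells, 13 of 18 were higher and 1 lower (medians 1.85 and 1.89). The background of the second contrast was 339 genes higher and 308 lower in members than in visceral muscle cells among 6342 (5.35% and 4.86%), with medians over all genes of 0.02 and 0.01. Nrip2 (chr6:128399296-128416427, plus strand), a nuclear receptor interacting protein, was at 222 and 229 CPM in members, 35.0 and 37.4 in Myh11- cells and 21.6 and 28.9 in visceral muscle cells. Its log2 ratios were 2.50 (2.08 to 2.94) and 2.46 (2.13 to 2.81) over Myh11- cells and 3.09 and 2.79 over visceral muscle. A UMI of Nrip2 was found in 43.7% of LI and 57.9% of SI members, 11.5% and 10.0% of Myh11- cells and 0.615% and 1.47% of Pi16+Pdgfra+ FBs. Its level was thus above both Myh11- and visceral muscle cells. Its share, not adjusted for depth, was above Myh11- cells and FBs.

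Map3k7cl was at 211 and 191 CPM in members, against 41.0 and 61.0 in Myh11- cells and 24.3 and 26.2 in visceral muscle. Kcna5, a voltage-gated potassium channel of arterial muscle, was at 23.8 and 33.0 CPM, against 4.27 and 7.85, and 3.25 and 5.74. Crip1, a LIM protein, was at 2977 and 2946, against 1309 and 1257, and 828 and 757. These 3 genes, with Nrip2, Sncg, Tesc and Ntn4 (netrin 4), passed 2-fold over both other groups in both libraries. Fbxl22, a muscle F-box protein, was higher than in Myh11- cells (163 and 146 against 18.8 and 27.2 CPM) but lower than in visceral muscle (391 and 433). Gja4, a gap junction protein of vessels, did not separate the mural cells (280 and 355 against 294 and 463) and stood above visceral muscle (7.03 and 18.9), as did Olfr558, an olfactory receptor expressed in vascular muscle (171 and 97.6 against 159 and 63.4, and 4.60 and 8.61).

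Pln (chr10:53337667-53345987), phospholamban, the inhibitor of the sarcoplasmic calcium pump, was at 105 CPM in LI members against 2.56 in Myh11- cells. In SI members it was at 27.9 CPM, with 0 UMIs in Myh11- cells, which allows up to 1.81 CPM. Visceral muscle cells held 35.4 and 28.7 CPM. Pln therefore stood above visceral muscle in the LI graft and level with it in the SI graft. It had a UMI in 14.8% and 10.0% of members.

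**Figure D2:**
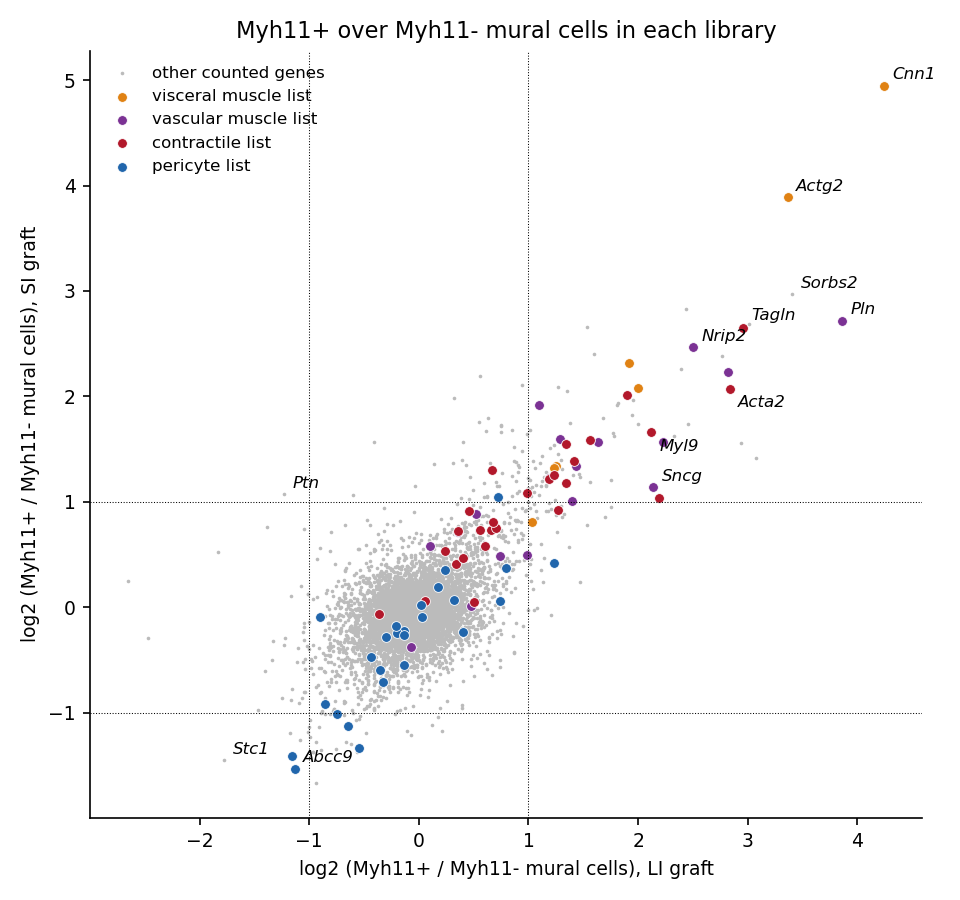
Log2 ratios of Myh11+ over Myh11- mural cells for each counted gene, LI graft on the horizontal and SI graft on the vertical axis (both log2), coloured by gene list, with Myh11 itself left out. Across the 6206 genes, which are not independent replicates, Pearson's r was 0.619, and Cnn1 (4.24 and 4.95), Actg2, Tagln and Acta2 lie far to the upper right while Stc1 and Abcc9 lie to the lower left.

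Genes typical of pericytes lay on both sides of equal between the mural cells. Of 26 counted, 0 were higher in members and 2 lower, among them Abcc9, with medians of -0.17 and -0.24. Of all genes 1.32% were higher and 0.113% lower. Abcc9 (chr6:142587862-142702315, minus strand), the sulphonylurea receptor that pairs with Kcnj8, was at 192 and 112 CPM in members and 427 and 332 in Myh11- cells, log2 ratios of -1.13 (-1.34 to -0.93) and -1.53 (-1.70 to -1.36). Pdgfrb (471 and 401 against 593 and 657), Rgs4 (245 and 267 against 446 and 510), Art3 (152 and 242 against 259 and 494) and Higd1b (92.1 and 130 against 147 and 290) had lower values in members in both grafts without passing 2-fold in both. Cox4i2 (chr2:152754173-152765037), a subunit of cytochrome oxidase, and Ndufa4l2 had log2 ratios between -0.25 and -0.14.

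The 7 genes lower in members than in Myh11- cells were 61 when members needed 3 Myh11 UMIs, 31 after thinning to 2000 UMIs (beside 53 higher), 16 in Xist cells and 14 after removal of the highest doublet scores. Of the 7, 4 had at least 50 CPM in Myh11- cells of both grafts. Stc1, the secreted hormone stanniocalcin 1, was at 38.6 and 19.8 CPM against 144 and 62.8, log2 ratios of -1.78 (-2.18 to -1.38) and -1.45 (-1.81 to -1.09). Pdzd2 had log2 ratios of -1.17 and -1.20, and Kcne4, a potassium channel subunit, was at 59.9 and 36.9 CPM against 125 and 87.0. Of the 22 ion channel and calcium genes counted 3 were lower, Abcc9 and Kcne4 among them. The 4 that were higher were Pln, Kcna5, its partner subunit Kcnab1 (36.1 and 39.0 against 2.56 and 1.21 CPM) and the plasma membrane calcium pump Atp2b4 (133 and 131 against 56.4 and 53.8). These counts stand beside 1.32% of all genes higher and 0.113% lower. The number of lower genes moved with the settings, as given above, so the values are given as a description.

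Against visceral muscle, the pericyte genes stood high in members. Of 25 counted, 22 were higher and 1 lower (Ptger3), beside 5.35% and 4.86% of all genes, with medians of 2.40 and 2.34. The mean of these medians, 2.37, became 1.64 after thinning to 2000 UMIs. Cox4i2 was at 552 and 515 CPM against 15.4 and 14.1, log2 ratios of 4.77 (4.46 to 5.08) and 4.76 (4.50 to 5.03), and had a UMI in 71.1% and 77.9% of members. Ebf1, a transcription factor of mural and other mesenchymal cells, was at 1055 and 876 against 100 and 72.0, Ndufa4l2 at 973 and 1018 against 75.2 and 46.9, and Inpp4b at 239 and 191 against 10.3 and 17.6. Cdh2, N-cadherin, was at 104 and 82.3 against 2.71 and 3.69, and Angpt2, a ligand of the endothelial receptor Tie2, at 99.8 and 96.1 against 6.76 and 4.51. Since visceral muscle cells were required to have fewer than 2 mural genes, a contrast in mural genes was built into the choice of cells.

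The contractile genes were next set against visceral muscle. Of 27 counted, 0 were higher and 0 lower, beside 5.35% and 4.86% of all genes (medians -0.27 and -0.30), with Acta2 at -0.34 and -0.20, Tagln at -0.83 and -0.39 and Mylk at -0.84 and -0.97. Of 8 visceral muscle genes that did not choose the cells, 5 were lower in members (medians -1.14 and -1.55). The mean of these medians, -1.34, became -2.79 after thinning to 2000 UMIs and -2.22 when 3 mural genes were required. Npnt, the matrix protein nephronectin, was at 5.80 and 21.9 CPM against 135 and 321. Hhip, a Hedgehog-binding inhibitor, was at 7.73 and 0.639 against 87.9 and 81.6, and Ckb at 497 and 529 against 1115 and 1304. Chrm2, the M2 muscarinic acetylcholine receptor of gut muscle, had 0 UMIs in LI members (up to 1.93 CPM) against 25.7 CPM, and stood at 13.4 against 65.2 CPM in the SI graft.

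**Figure D3:**
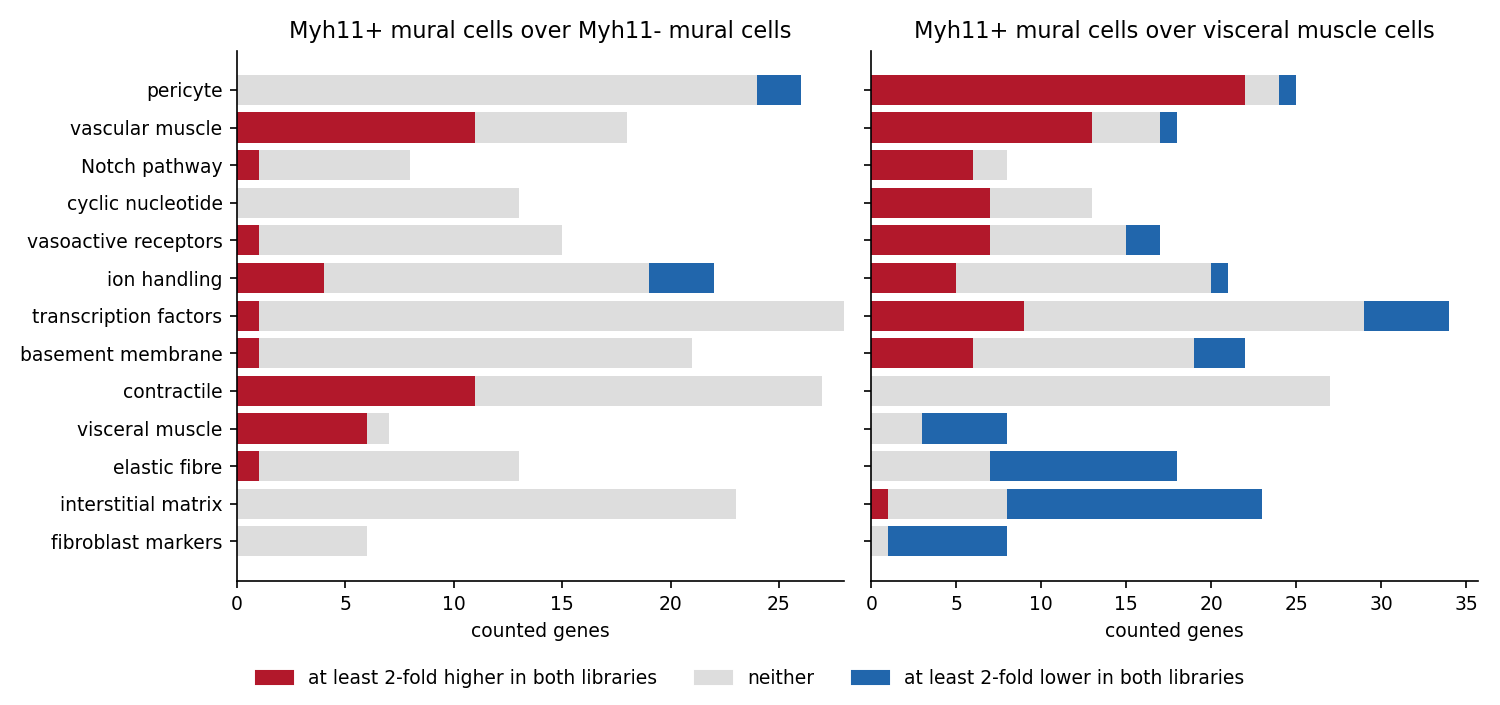
Number of counted genes of each of 13 lists that were at least 2-fold higher in members in both libraries, lower, or neither, against Myh11- mural cells (one panel) and against visceral muscle cells (the other). Contractile genes are 11 of 27 higher against Myh11- cells and 0 of 27 against visceral muscle, and pericyte genes are 0 of 26 higher against Myh11- cells and 22 of 25 against visceral muscle.

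Signalling genes were compared with both groups. Among Notch pathway genes 6 of 8 counted were higher than in visceral muscle (medians 2.43 and 2.16) and 1 of 8 (Nrip2, also in the vascular muscle list) was higher than in Myh11- cells. Over all genes these shares were 5.35% and 1.32%. Jag1, a Notch ligand, was at 92.7 and 132 CPM in members, 53.9 and 63.4 in Myh11- cells and 17.9 and 27.7 in visceral muscle. Nrarp, a Notch target that limits the pathway, was at 124 and 159, against 62.4 and 80.3, and 7.30 and 14.3. The Notch target Heyl, a transcriptional repressor, did not separate the mural cells (138 and 108 against 135 and 116) and was at 13.3 and 18.2 in visceral muscle. Over Myh11- cells Jag1 passed 2-fold in the SI graft but not in the LI graft (log2 ratio 0.73), and Nrarp passed it in neither (0.94 in each).

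Receptors for vasoactive signals were compared in the same way. Of 17 counted against visceral muscle, 7 were higher and 2 lower, beside 5.35% and 4.86% of all genes. The medians were 1.34 for LI and -0.087 for SI cells, so the list as a whole did not go one way. Ednra, the endothelin A receptor, was at 218 and 135 CPM against 50.9 and 38.1, S1pr3, a sphingosine 1-phosphate receptor, at 173 and 157 against 35.4 and 35.9, and Adra2a, an alpha-2 adrenergic receptor, at 74.7 and 64.6 against 1.62 and 3.07. Against Myh11- cells, 1 of 15 counted was higher, P2rx1, the ATP-gated channel of arterial muscle, at 51.5 and 35.6 CPM against 1.71 and 10.3. That count is near the share of all genes (1.32%), and nothing is read from it. Agtr1a, the angiotensin II receptor, was at 27.7 and 35.2 in members, with higher values in Myh11- cells (55.6 and 97.8) and lower ones in visceral muscle (6.76 and 4.10). Genes of nitric oxide and cyclic nucleotide signalling were higher than in visceral muscle in 7 of 13 (medians 1.36 and 1.01), beside 5.35% of all genes. Among them were the guanylate cyclase subunit Gucy1a3 (828 and 655 against 233 and 205) and the kinase Prkg1 (110 and 74.2 against 44.1 and 33.2). From Myh11- cells 0 of 13 differed by 2-fold, near the share of all genes (1.32% and 0.113%), so nothing is read from that count.

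Of 8 Rgs genes counted against visceral muscle, 3 were higher (Rgs4, Rgs7bp, Rgs16) and 1 lower (Rgs10, 42.5 and 41.3 against 273 and 197 CPM). Of all genes 5.35% were higher and 4.86% lower. Against Myh11- cells 0 of 8 passed 2-fold, again near the share of all genes. Of 28 transcription factors counted, 1 was higher than in Myh11- cells, Foxc1 (39.3 and 37.7 against 16.2 and 12.1 CPM). That count is near the share of all genes (1.32%), and nothing is read from it. Mef2c, a factor of muscle differentiation, was close to the limit (677 and 534 against 291 and 277; log2 1.20 and 0.93) and was above visceral muscle (147 and 132). Myocd, the coactivator of serum response factor in smooth muscle, was at 21.3 CPM against 0.855 in the LI graft and, below the level needed to be counted, at 18.3 against 4.83 in the SI graft, while Srf itself was at 23.8 and 36.2 against 23.1 and 38.0. Against visceral muscle 9 of 34 factors counted were higher and 5 lower, beside 5.35% and 4.86% of all genes. The higher ones included Ebf1, Epas1 (287 and 314 against 39.5 and 39.8) and Nr2f2 (413 and 322 against 92.8 and 77.1), and the lower ones Pitx1, Foxf2 and Foxp2.

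Members were chosen to have no UMI of Pdgfra, a fibroblast receptor, whereas 27.4% of LI and 29.8% of SI visceral muscle cells had one (65.2 and 113 CPM), so a contrast in fibroblast genes was partly built into the choice of cells and the matrix values are a description. Of 23 interstitial matrix genes counted, 15 were lower and 1 higher than in visceral muscle (medians -1.39 and -1.30), beside 4.86% and 5.35% of all genes. Against Myh11- cells 0 of 23 passed 2-fold, a share near the 1.32% and 0.113% of all genes from which nothing is read. Col1a1, type I collagen, was at 795 and 1201 CPM against 3183 and 4525, and Dcn at 1805 and 914 against 6245 and 7029, while the type V collagen gene Col5a3 was at 167 and 183 against 52.8 and 53.9. Among elastic fibre genes 11 of 18 were lower, such as Mfap5 (64.4 and 23.4 against 915 and 370), but Eln, elastin, was not: it stood at 669 and 1031 CPM in members, 228 and 159 in Myh11- cells and 833 and 930 in visceral muscle. Its log2 ratios over Myh11- cells were 1.53 and 2.66, the only elastic fibre gene of 13 to pass. Of 8 fibroblast markers counted, 7 were lower in members than in visceral muscle (medians -1.77 and -2.46), which the limit on Pdgfra favoured, and their part in the matrix values was not tested.

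Basement membrane genes went in both directions against visceral muscle, 6 of 22 higher and 3 lower, beside 5.35% and 4.86% of all genes. Col18a1 was at 589 and 691 CPM against 165 and 176, Lamc3, a laminin chain, at 111 and 33.0 against 1.89 and 3.28, and Tinagl1 at 733 and 657 against 97.1 and 109. Of the integrin subunits, Itga7, a laminin receptor, was at 74.1 and 77.4 against 5.95 and 9.63, and Itga4 at 173 and 169 against 34.6 and 33.0. Among secreted signals Ccl11, eotaxin, was at 559 and 846 against 85.5 and 180, Il34 at 126 and 140 against 7.57 and 24.0, Il6 at 167 and 195 against 38.1 and 33.2, and Pdgfa at 292 and 422 against 76.0 and 87.1. Between members and Myh11- cells 0 of 23 vessel signal genes, 0 of 13 chemokine and cytokine genes and 0 of 22 immediate early genes passed 2-fold in both libraries, which is near the share of all genes (1.32% and 0.113%), and nothing is read from it. The chemokine Ccl5, with most of its UMIs in 1 cell in one library, and the growth factor Pgf are not in these lists and were among the 82 that were higher.

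Within the mural cells, levels were followed over the number of Myh11 UMIs. In the classes of 0, 1, 2 to 4, 5 to 9 and 10 or more UMIs the LI graft had 262, 97, 109, 38 and 33 cells and the SI graft 350, 152, 235, 159 and 133. Acta2 was at 754, 1527, 3598, 7969 and 13734 CPM in these LI classes and at 1660, 2406, 3907, 7356 and 13634 in the SI classes. Pdgfrb was at 593, 572, 500, 409 and 292, and at 657, 575, 493, 317 and 254. The contractile gene was higher and the receptor lower at each step in both grafts.

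Abcc9 was at 427 CPM without Myh11 and at 36.5 with 10 or more UMIs in the LI graft, and at 332 and 34.6 in the SI graft. Kcnj8, its channel partner, followed with 651 and 98.6, and 510 and 66.6. Rgs5 stayed between 3747 and 4545 CPM in the first 4 LI classes and was 1994 in the last, and in the SI classes it was at 4456, 5098, 4266, 2871 and 2271. Notch3 was at 362 and 310 CPM in the lowest and highest LI class and at 451 and 369 in those of the SI graft, and Cspg4 was at 217 and 230 in the lowest and highest LI class. Abcc9 and Kcnj8 thus differed several-fold over this range, and Notch3 and Cspg4 much less.

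Actg2 was at 63.3, 88.8, 181, 215 and 3240 CPM in the LI classes and at 84.6, 175, 286, 665 and 4063 in the SI classes. Of the 887 Actg2 UMIs in the highest LI class 707 (79.7%) came from 1 cell of 33, and without it the level was 693 CPM. In the highest SI class the level without its highest cell was 3226 CPM. Cnn1 was at 804 and 1195 CPM in the highest class, and at 447 and 967 without the highest cell. Both genes were thus higher in the highest class than in the other classes also without that cell. Pln was at 2.56, 10.8, 17.0, 119 and 442 CPM and at 0, 3.67, 10.2, 19.6 and 75.02. Median UMIs per cell were also higher with each class, from 4071.5 to 6816 in the LI graft and from 3589.5 to 7732 in the SI graft, and the part of depth in these gradients was not tested. The share of cells with the highest doublet scores was 8.02%, 13.4%, 11.9%, 10.5% and 9.09% in the LI classes and 2.86%, 6.58%, 5.96%, 11.9% and 9.02% in the SI classes.

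**Figure D4:**
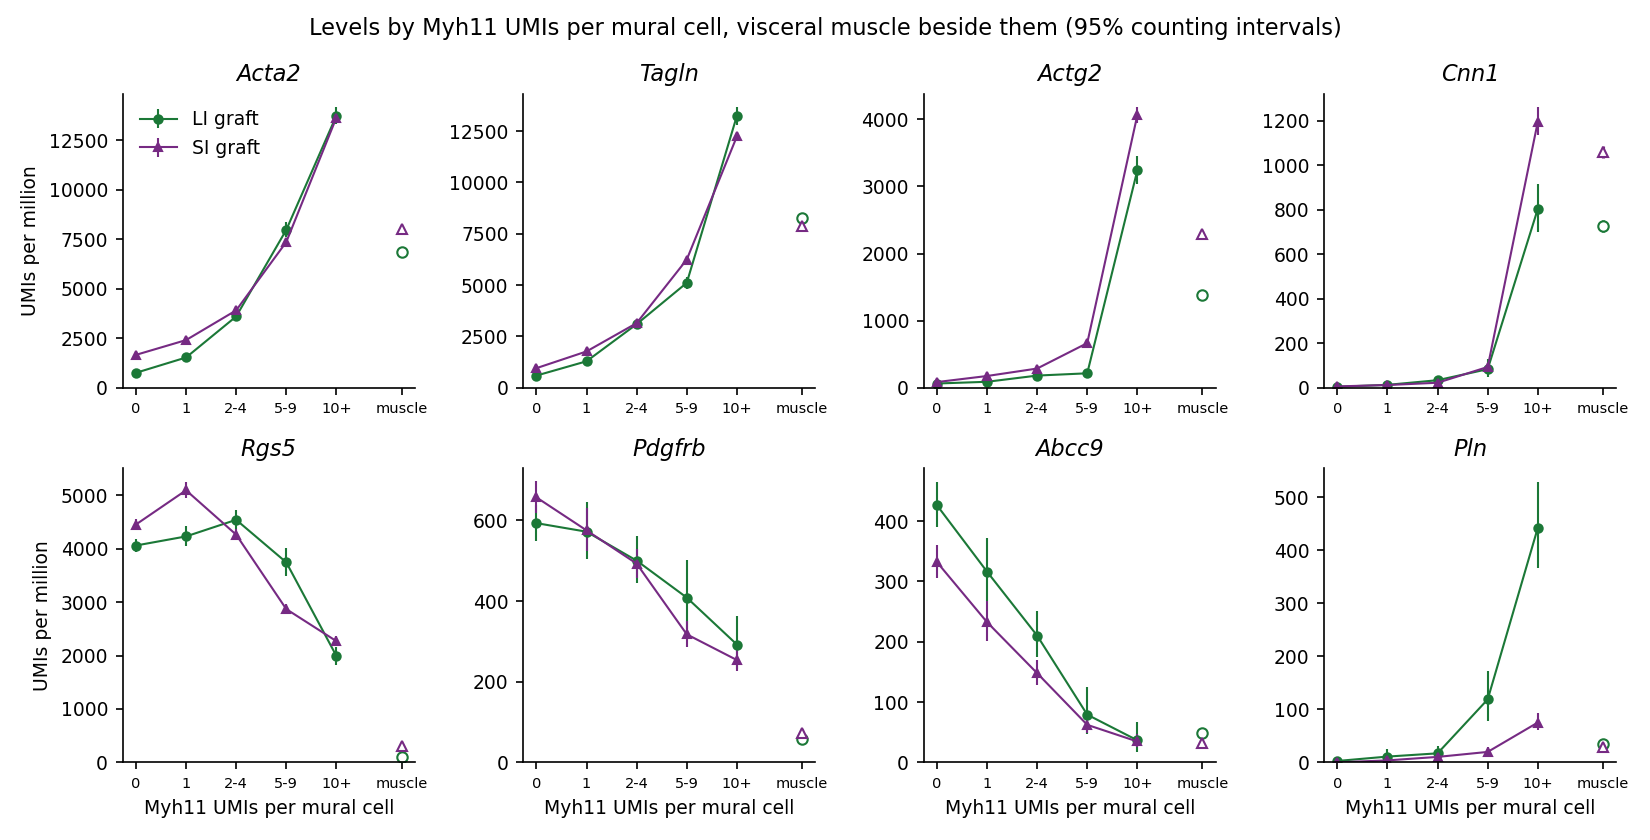
Levels in CPM of 8 genes by the number of Myh11 UMIs in a mural cell (0, 1, 2 to 4, 5 to 9, 10 or more), with visceral muscle cells beside them, for the LI and SI grafts, with 95% counting intervals. Acta2 reaches 13734 and 13634 CPM in the last class while Abcc9 is lowest there at 36.5 and 34.6 CPM, and the Actg2 value of 3240 CPM in the last LI class is 693 CPM without 1 cell.

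The last comparison set LI members beside SI members. Of 6509 genes with at least 20 CPM in one library, 57 were at least 2-fold higher in LI members (0.876%) and 98 in SI members (1.51%), with a median log2 ratio of 0.01. The rule did not use this contrast, but with 1 library a side it stays a description. These counts changed with the settings, being 346 and 437 after thinning to 2000 UMIs, which left 106 LI and 299 SI members. They were 99 and 153 when 3 mural genes were required. The cause of these changes was not tested. The contractile list had 0 of 27 genes past 2-fold (median -0.22) and the pericyte list 0 of 26 (median 0.10), shares that lie near these backgrounds, so nothing is read from them. Of the rule's mural genes Kcnj8 was at 315 CPM in LI and 169 in SI members (log2 0.88, 0.72 to 1.04). Among vascular muscle genes 2 of 18 were higher in the LI graft, Pln (log2 1.74, 1.43 to 2.04) and Sncg (1.06).

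Hox genes, which record position along the gut, split by segment. All 4 posterior Hox genes counted were higher in LI members. Hoxa9 (chr6:52223100-52231089) was at 66.3 CPM in LI and 0.213 in SI members and had a UMI in 28.5% and 0.147% of them. Hoxa10 was at 63.1 and 0.213, Hoxd9 at 28.3 and 0.852, and Hoxa11 at 27.0 against 0 UMIs in SI members, which allows up to 0.639 CPM. Of 10 anterior Hox genes counted, 5 were higher in SI members, with Hoxc8 at 7.08 and 45.8 CPM and Hoxa5 at 10.3 and 39.2. Hoxa10 was at 88.9 CPM in LI and had 0 UMIs in SI Myh11- cells, and was at 59.8 and 0.205 CPM in visceral muscle, so the segment difference was shared with the other cells.

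Other genes higher in LI members included Pitx1, a homeobox factor of hindgut and hindlimb (68.3 and 3.41 CPM), Cxcl14 (74.7 and 12.6), Ptger4, a prostaglandin E2 receptor (34.8 and 7.46), and Lamc3 (111 and 33.0). Fibroblast markers were also higher in LI members, with sums of 2931 and 1571 CPM over 10 genes and a median log2 ratio of 0.86 over the 6 counted, of which 1 passed 2-fold, Adamdec1 (473 and 143 CPM). In Pi16+Pdgfra+ FBs Cxcl14 was at 465 and 69.6 CPM and Pitx1 at 33.2 and 0.887, and the part of fibroblast RNA in these differences was not tested. Ren1 (chr1:133350510-133360325), the gene of renin, was at 88.2 CPM in LI and 2.56 in SI members. Its 137 LI UMIs came from 19 cells, of which 1 held 62 (45.3%), and the level without the 3 highest cells was 30.9 CPM. Pi16+Pdgfra+ FBs held 107 and 28.4 CPM of Ren1, with a UMI in 13.7% and 8.39% of cells, against 6.86% and 0.442% of members. The share of members with Ren1, and its CPM in them, were therefore at or below those of a cell type not expected to make renin. The FBs were deeper, with median UMIs of 8334 and 9272 against 4960 and 5520 in members, and the shares are not adjusted for this.

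Of 29 interferon-responsive genes counted, 16 were higher in SI members and 0 in LI members, with a median log2 LI over SI ratio of -1.13. Cxcl9 (chr5:92321347-92328079), a chemokine induced by interferon gamma, was at 328 and 1841 CPM, Cxcl10 (chr5:92346638-92348889) at 619 and 2395, and the guanylate-binding protein gene Gbp4 at 15.5 and 144. The class I genes H2-K1 (650 and 1878) and B2m (917 and 2007) were higher as well. The class II genes H2-Aa (30.3 and 28.6) and Cd74 (102 and 97.2), and Isg15 (516 and 476), did not differ by 2-fold. Outside this list the chemokines Ccl2 (136 and 758) and Cxcl2 (36.1 and 188) were higher in SI members.

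The cells of each library came from female and male tissue, as read from Xist, which is transcribed from the inactive X chromosome, and 4 Y-linked genes. Of LI members 251 had Xist and no Y-linked UMI and 10 a Y-linked UMI and no Xist, and of SI members 307 and 210. Interferon list genes summed to 4877 CPM in LI and 6119 in SI members with Xist, and to 26747 and 26383 in those with Y-linked UMIs. Within SI members, 28 of the 29 interferon genes counted were at least 2-fold higher in Y-linked than in Xist cells, beside 191 of all 6525 genes (2.93%), with 50 lower (0.766%). The difference between SI and LI members in these genes thus moved with the share of Y-linked cells, and sex cannot be told apart from other differences between the pooled embryos.

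When only Xist cells were compared, 68 genes were higher in LI (1.04%) and 54 in SI members (0.826%) of 6535. The interferon list then had a median log2 ratio of -0.13 over 25 genes counted, with 1 higher and 2 lower, the latter being Cxcl9 (-1.34, -1.77 to -0.91) and Cxcl10 (-1.11, -1.24 to -0.98). Of the 57 genes higher in LI members 44 were also past 2-fold in Xist cells, including the 4 posterior Hox genes, and of the 98 higher in SI members 28 were, including 2 of the 16 interferon genes. Ccl2 (-2.14) and Cxcl2 (-2.80) kept their direction and size, as did Pln (1.61) and Cxcl14 (2.44). Acta2 stood at -0.34 in Xist cells and -0.37 in all members.

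**Figure D5:**
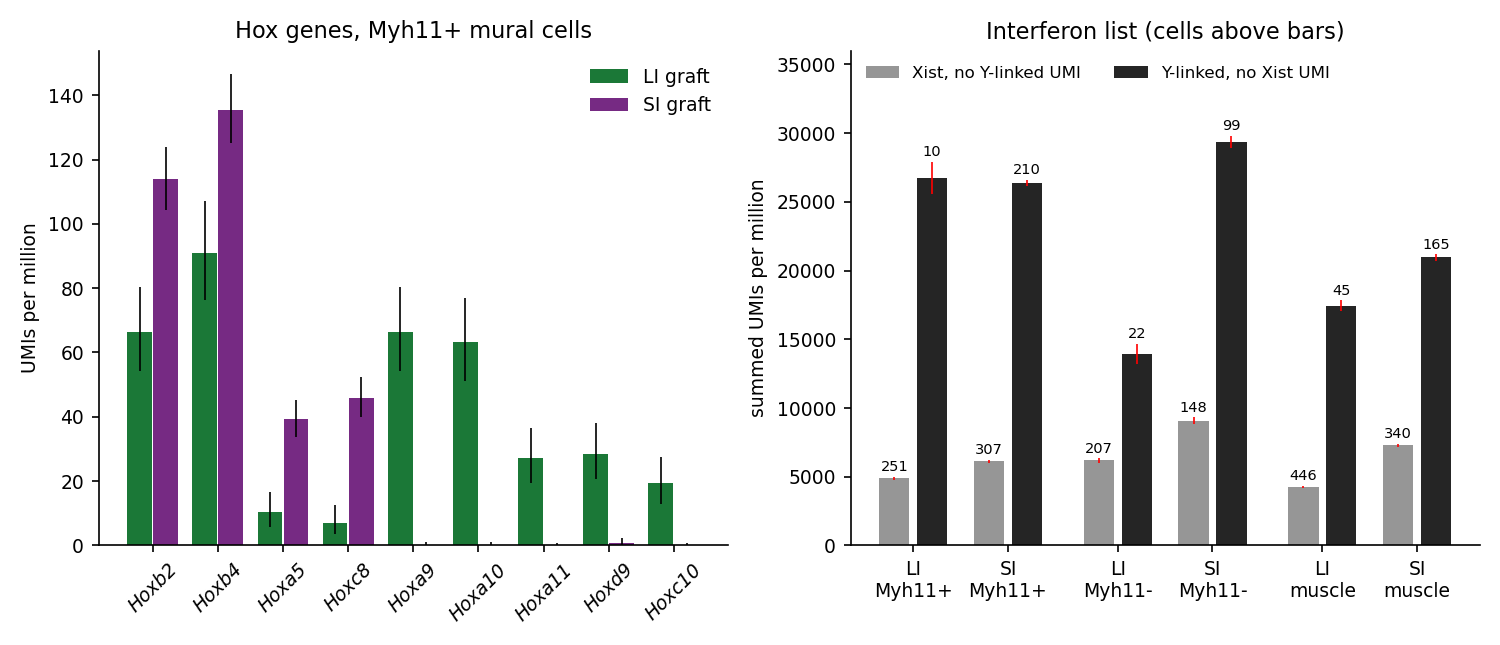
Levels in CPM of Hox genes in LI and SI members, and the summed CPM of the interferon list in Xist and Y-linked cells of the 3 groups of cells, with the number of cells above each bar and lines for 95% counting intervals. Posterior Hox genes reach 66.3 CPM in the LI graft and are near 0 in the SI graft, and interferon sums of members are 4877 and 6119 CPM in Xist cells against 26747 and 26383 in Y-linked cells.

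The differences between the grafts were looked for in the neighbouring cells. Of the 57 genes higher in LI members, 30 of 47 with a value were past 2-fold in the same direction in Myh11- mural cells and 9 of 37 in visceral muscle cells, with 1 past it in the opposite direction in the latter. Of the 98 higher in SI members, 72 of 91 were so in Myh11- cells and 31 of 74 in visceral muscle cells, with 4 opposite. The cells of each library share its embryos, kit and depth, so these are not independent observations.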

How the data were processed

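Single-cell transcripts were measured in 1 library of sorted MSCs from LI grafts and 1 from SI grafts, and groups followed the tissue label. The authors deposited raw UMI counts per gene and barcode, whole numbers without normalization; per the file headers and the submitters' processing notes these came from Cell Ranger 3.1.0 with mm10, and the notes also name Seurat 3. Which 10x kit made which library is not given in the sources used here.

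Barcodes were kept from 500 genes upward and up to 10% mitochondrial UMIs, which left out 977 LI and 1084 SI barcodes with fewer genes and 1373 and 1451 with more mitochondrial UMIs (some fail both). Cells were grouped by the rule of the report, UMIs summed per group and library, and levels given as CPM with exact Poisson intervals, shares with exact Clopper-Pearson intervals and ratios with exact binomial intervals, all at 95% and for counting error only. Ratios used a pseudocount of 5 CPM, at least 20 CPM and a limit of 2-fold, with no test because each group is 1 library. A level of 0 UMIs is given with the limit of 3 counts. Shares across depths were repeated after thinning to 2000 UMIs, which left out shallower cells. Scrublet, in scanpy 1.11.5, called 0 doublets at its own threshold in both libraries, which did not work, so the highest scores at 0.8% per 1000 barcodes (1071 LI, 742 SI barcodes) were removed as an alternative only. Genes named outside the lists were the 10 with the largest ratio per direction with at least 50 CPM, without the genes of the rule and sex-linked, haemoglobin, mitochondrial, ribosomal and Gm or Rik genes; S100a4, Ccl5, Sh3bgr, Ptn and Mmp9 and the genes of the Actg2 split that stand outside the lists were named after their values were seen. The members and lists were chosen with earlier results of these data known. Of the listed genes 4 were not matched (Ltbp4, whose symbol is not unique, Cxcl11, Gbp6 and Ccl19), and Gucy1a1, Gucy1b1 and Vegfd were found under their older symbols. The Y-linked genes were Ddx3y, Eif2s3y, Kdm5d and Uty. Coordinates are of mm10 genes (GENCODE vM21), and promoter windows of GRCm38.p6. Alternatives were other cell limits, stricter rule limits, doublet removal, thinning, per-cell means, TMM scaling (edgeR 4.0.16, R 4.3.3), other pseudocounts and level limits, and Xist cells only; leaving out the highest cell of each gene was added after the data were seen. The scripts (pandas 2.3.3, scipy 1.17.1, numpy 2.4.6 and matplotlib 3.10.9 under Python 3.11.15) were tested on simulated data. Some single genes are not reported here.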

Additional observations from a re-analysis of the deposited data

Results flagged for a closer look

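Ptn, the growth factor pleiotrophin (chr6:36714929-36810220, minus strand), differed in opposite directions between members and Myh11- mural cells. Its log2 ratio was -1.23 in the LI graft (-1.65 to -0.81; 40.6 against 102 CPM) and 1.07 in the SI graft (0.77 to 1.38; 116 against 52.5 CPM). In SI members 43.9% of its UMIs came from 3 cells, and the highest held 124 of 544. The difference between the grafts was not tested.

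Mmp9, a gelatinase (chr2:164940780-164955850, plus strand), had a log2 ratio of members over visceral muscle cells of 1.99 in the LI graft (1.46 to 2.42; 27.7 against 3.25 CPM) and -2.06 in the SI graft (-2.28 to -1.70; 1.07 against 20.3 CPM). All 43 of its UMIs in LI members came from 3 cells, and 1 cell held 41. The difference was not tested.

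Ccl2, a monocyte chemokine (chr11:82035571-82037453, plus strand), had a log2 ratio of members over visceral muscle cells of -1.12 in the LI graft (-1.33 to -0.91; 136 against 301 CPM) and 2.43 in the SI graft (2.31 to 2.55; 758 against 137 CPM). Xist and Y-linked SI members held 497 and 960 CPM. The difference was not tested.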

How the results depend on the processing

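Over the 12 results that answer a comparison, 134 of 172 alternative values stayed within the limits set for a like value, 38 moved and 0 reversed. For counts the limit was a set fold of the reported count. For shares it was the reported interval, and for list medians the median bounds of the listed genes. Only list medians could reverse, since counts and shares have no sign, so 0 reversed says nothing about those. Thinning to 2000 UMIs gave member shares of 1.16% (LI) and 4.06% (SI), 53 genes higher and 31 lower than in Myh11- cells, 346 genes higher in LI and 437 in SI members, and list medians over visceral muscle of -2.79 (visceral muscle genes) and 1.64 (pericyte genes). Requiring 3 Myh11 UMIs gave shares of 1.30% and 5.47%, 146 genes higher and 61 lower than in Myh11- cells and a visceral muscle median of -1.01. Requiring 3 mural genes gave 1.68% and 4.42%, 45 genes higher than in Myh11- cells, 99 higher in LI and 153 in SI members and a visceral muscle median of -2.22. Xist cells alone gave an SI share of 7.05%, 16 genes lower than in Myh11- cells and 54 higher in SI members. A limit of 50 CPM gave 42 genes higher and 4 lower than in Myh11- cells, 308 lower than in visceral muscle becoming 194, 30 higher in LI and 58 in SI members, and a limit of 10 CPM gave 90 higher in LI members. A pseudocount of 1 CPM gave 16 lower than in Myh11- cells and 87 higher in LI members. Genes lower than in Myh11- cells numbered 14 after removal of the highest doublet scores and 12 with per-cell means. Limits of 200 genes and 20% mitochondrial UMIs gave an SI share of 7.94%. The visceral muscle median over visceral muscle, -1.34 as reported, was -1.11 with limits of 1000 genes and 5%, -1.72 with 3 Rgs5 UMIs, -1.81 with per-cell means and -1.57 without the highest cell of each gene, an alternative chosen after seeing the data. Counting Rgs5 as a further mural gene gave a pericyte median of 2.66, against 2.37 as reported. The cause of these moves was not tested, other than that thinning and stricter limits leave fewer cells or genes. The count higher than in visceral muscle (339) and the contractile and visceral muscle medians over Myh11- cells (0.81 and 1.998) stayed within these limits throughout, but changed. The count ranged from 242 (limit of 50 CPM) to 386 (limit of 10 CPM). The contractile median ranged from 0.64 (3 mural genes) to 1.14 (3 Myh11 UMIs), and the visceral muscle median from 1.62 (per-cell means) to 2.27 (3 Myh11 UMIs).

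Of 3842 alternative values of 246 single genes, 3178 stayed within their limits, 659 moved and 5 reversed. The log2 LI over SI ratio reversed in Xist cells alone for Apol6 (0.17), Bst2 (0.0153), Gbp7 (0.10) and Iigp1 (0.12), and for Ramp3 (-0.12) with at least 3 Myh11 UMIs. Counting error alone was covered by the intervals, and 1 library per graft leaves the spread between grafts unknown. No paired analysis was possible because each group is 1 library and no result comes from a test.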
